A study of Mus musculus with 9 samples.

Results

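Melanin genes of the newborn mouse eye were described in the anterior segment, the front part of the eye, through 10 genes of melanocytes and pigmented epithelium. The members were the rows of the read count table whose identifiers map to Kit, Mitf, the nonagouti gene (symbol a), Tyr, Tyrp1, Dct, Pmel, Mlana, Slc45a2 and Oca2. All 10 were found among 35275 genes, and all 10 passed the filter on low counts. The samples were 6 pools from mutant mice with 1 allele of Col4a1 carrying the missense change G1344D (Col4a1+/G1344D) and 1 normal allele, and 3 pools from wildtype mice (Col4a1+/+), all at postnatal day 0. Col4a1 encodes a chain of the type IV collagen of basement membranes. Each pool held 4 eyes from 2 mice, with the lens removed, so that cornea, iris, ciliary body and drainage structures were measured together by bulk RNA sequencing. The labels name neither the strain nor the coat colour of the mice.

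Pigment in the iris and ciliary body is made by cells of separate origins. Melanocytes of the iris stroma come from the neural crest, while the pigmented epithelium of the iris and ciliary body comes from the optic cup, and both make melanin in melanosomes. The transcription factor MITF switches on the genes for the melanin enzymes in both. The receptor KIT guides melanoblasts, the precursors of melanocytes, and agouti protein, a secreted antagonist of the melanocortin 1 receptor, shifts melanocytes between the dark and the yellow pigment. In bulk tissue, fewer pigment cells and less RNA per pigment cell cannot be told apart.

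Libraries held between 25995340 and 35306935 counts. The member genes took 1.38% to 1.64% of the counts in mutant libraries and 1.59% to 1.70% in wildtype libraries. These are shares of all counts, including those on Gm42418, whose share differed between libraries as given below. Markers of the dissected tissue were present: the corneal epithelial keratin gene Krt12 averaged 224 ± 22.9 CPM in mutant libraries and 226 ± 37.3 CPM in wildtype libraries (CPM, the standard unit of read counts scaled to library size; SD, n = 6 and 3), and Pax6, a regulator of eye development, 299.8 ± 15.5 CPM in mutant and 317 ± 4.93 CPM in wildtype libraries. Of 10 corneal genes, 1 rose, the collagen gene Col8a1, and 3 fell, the proteoglycan genes Kera and Lum and the dehydrogenase gene Aldh3a1; of 13 genes of iris, ciliary body and drainage tissue, 1 rose, the bicarbonate transporter gene Slc4a4, and 3 fell, the smooth muscle genes Acta2 and Cnn1 and the water channel gene Aqp1 (edgeR). Among all tested genes, 9.7% were called higher and 9.47% lower. Without wildtype 1, the calls of Kera, Lum, Aldh3a1, Slc4a4 and Acta2 were lost. Neural retina markers were low, at a sum of 12.3 to 22.9 CPM over 18 genes in mutant libraries and 14.7 to 24.9 CPM in wildtype libraries, with the photoreceptor gene Rcvrn at 0 in every library. Of the 8 tested retina markers, 0 were called by edgeR, 0 had an unadjusted p under 0.05, 0 were called by DESeq2 and 1, Stmn2, was called lower by limma-voom. The lowest edgeR p-values were those of Stmn2 (1.63 ± 0.52 CPM in mutant and 2.43 ± 0.39 CPM in wildtype libraries) and Fabp7 (2.12 ± 0.50 CPM in mutant and 3.07 ± 1.17 CPM in wildtype libraries). Of 9 tested lens markers, 0 were called higher and 1 lower, Bfsp2, a call lost without wildtype 1. The summed level of the 16 listed lens genes was 211 to 234 CPM in mutant and 257 to 262 CPM in wildtype libraries. Most of that sum was the crystallin gene Cryab, which was not called, at 186 ± 10.6 CPM in mutant and 206 ± 5.22 CPM in wildtype libraries. Crybb2 and Lim2 were at 0 in every library. The pigment epithelium gene Rpe65 was likewise at 0 throughout. Libraries also fell into 2 sets by the share of counts on Gm42418, a gene model that overlaps ribosomal RNA sequence: mutant 2 and wildtype 2 and 3 had 0.0663% to 0.0708%, and the other 6 had 4.11% to 6.91%. Long genes had relatively more counts in most mutant libraries, with slopes of -0.00089 to 0.152 log2 units per doubling of exon length in mutant libraries against -0.132 to -0.0335 in wildtype libraries.

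The melanin enzymes share a short promoter motif, and 120-base stretches of their promoters that contain it are shown because the results below set this enzyme family beside Kit and nonagouti, whose windows lacked it. The letters searched were TCATGTG, the core of the site known as the M-box that MITF can bind, on both strands of windows from 250 bases before to 50 after each RefSeq gene start (GRCm38.p6). Each sequence is written 5′ to 3′ on the gene's strand with the motif in capitals.
Tyr (chr7:87493513-87493632, minus strand): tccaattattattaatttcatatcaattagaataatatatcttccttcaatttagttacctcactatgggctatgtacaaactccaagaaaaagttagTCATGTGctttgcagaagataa
Tyrp1 (chr4:80834093-80834212, plus strand): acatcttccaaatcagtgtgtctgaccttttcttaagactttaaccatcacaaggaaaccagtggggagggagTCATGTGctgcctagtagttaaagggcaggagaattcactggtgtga
Dct (chr14:118052308-118052427, minus strand): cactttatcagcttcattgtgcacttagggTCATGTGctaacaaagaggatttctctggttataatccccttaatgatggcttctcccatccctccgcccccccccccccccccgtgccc
The motif began 22 bases before the start of Tyr, 47 before that of Tyrp1 and 151 before that of Dct, and Dct held a further copy on the other strand. Of the 7 members with a window, these were the ones with a match, while the windows of Mitf, Oca2, Kit and a held none. Across all 32851 windows, 3.77% held the motif on either strand. These letters are a description of the windows and not a test of binding.

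Among the members, Kit rose and nonagouti fell in mutant anterior segments, and the other 8, which include every enzyme, structural and transporter gene of the list, did not pass the test. With edgeR's quasi-likelihood test over 15825 genes, 1 member was called higher and 1 lower, where 9.7% of all tested genes were called higher and 9.47% lower, or 19.2% in either direction. A share of 2 of 10 is close to that background. For 3 members every mutant library was the higher and for 1 member every mutant library was the lower, where 22% of all tested genes showed no overlap in either direction. The median log2 fold change of the members was -0.09, against -0.002 over all tested genes.

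**Figure D1:**
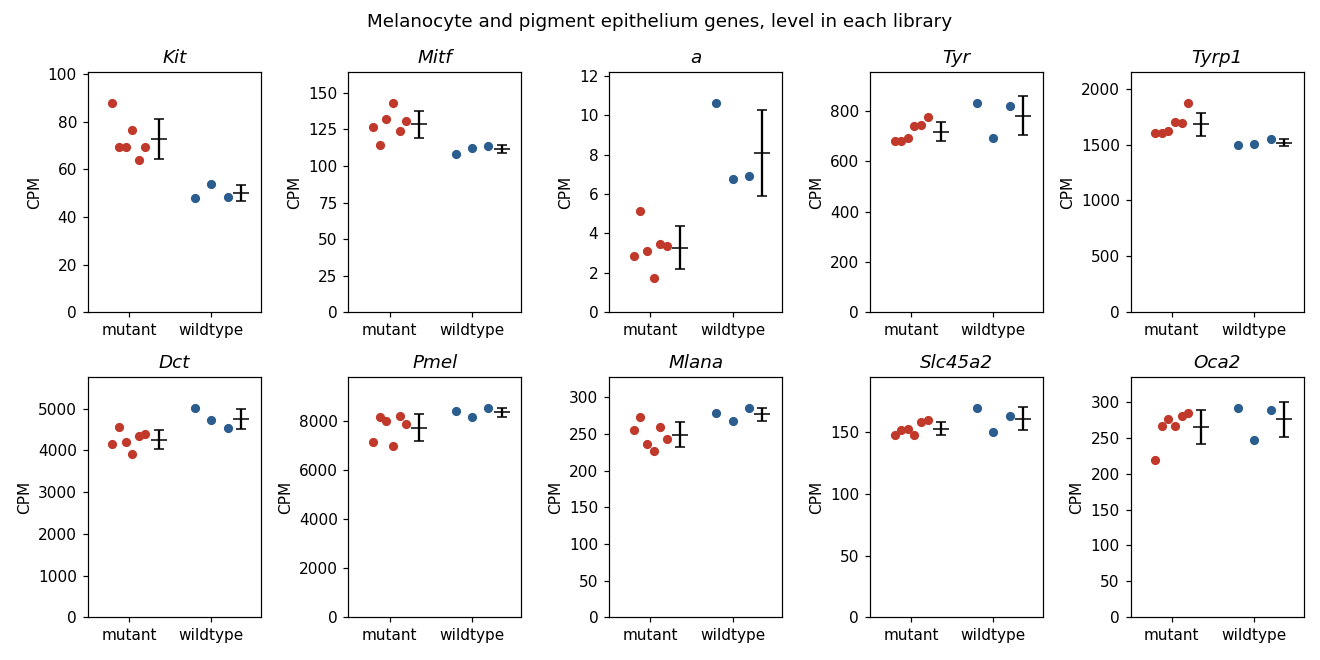
Level of each of the 10 genes in CPM (linear axes from 0), with 1 point per library, mutant libraries (n = 6) left and wildtype libraries (n = 3) right, and the mean with its SD beside the points. Kit is higher and nonagouti (a) lower in every mutant library than in any wildtype library, while most melanin genes overlap between the groups.

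Kit (ENSMUSG00000005672, chromosome 5, 75574916 to 75656722 of GRCm38, plus strand) encodes the receptor tyrosine kinase for stem cell factor, carried by melanoblasts and also by mast cells. It ranged from 64.1 to 87.7 CPM in mutant libraries, with a median of 69.4, against 48.0, 54.0 and 48.4 CPM in wildtype libraries 1 to 3. All 6 mutant libraries were above all 3 wildtype libraries, and mutant 1 was the highest. The mean was 72.7 ± 8.35 CPM in mutant and 50.1 ± 3.36 CPM in wildtype libraries (SD, n = 6 and 3), a 1.45-fold rise (log2 0.54, SE 0.10, edgeR adjusted p = 0.00337). The rise was smaller, at 0.37, with the exon length trend removed (edgeR adjusted p = 0.0145). Within the libraries rich in Gm42418 the 5 mutants averaged 73.4 CPM against 48.0 CPM in wildtype 1, and within the others mutant 2 had 69.5 CPM against a mean of 51.2 CPM in wildtype 2 and 3.

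Mast cells, which also carry Kit, had lower marker levels in the mutant. Of 11 mast cell genes tested, 6 fell and 0 rose, where 9.47% of all tested genes were called lower and 9.7% higher (edgeR). Their median log2 fold change was -0.73. Chymase Cma1, a mast cell granule protease, ranged from 15.8 to 24.0 CPM in mutant libraries (median 21.5) against 36.9, 39.5 and 37.3 CPM in wildtype libraries, a 1.80-fold fall (log2 -0.85, SE 0.12, edgeR adjusted p = 0.000633). Tryptase Tpsb2 averaged 35.6 ± 7.67 CPM in mutant and 67.8 ± 4.47 CPM in wildtype libraries, 1.90-fold lower, and the carboxypeptidase gene Cpa3 42.8 ± 7.97 and 71.7 ± 8.68 CPM, 1.68-fold lower. These 3 protease genes did not overlap between the groups. Mcpt4, another chymase, fell 1.66-fold and Hdc, which makes histamine, 1.41-fold, and both overlapped between groups in single libraries. Fcer1a, a chain of the IgE receptor, had few reads, at 0.07 to 0.51 CPM in mutant and 0.52 to 1.73 CPM in wildtype libraries, without overlap, and its call was lost without wildtype 1 or wildtype 3. Summed over the list, mast cell genes had 113 to 163 CPM in mutant and 213 to 250 CPM in wildtype libraries, and 0 of the 11 genes was at 0 in every library. All 6 mutant libraries had more Kit and a lower sum of mast cell markers than any wildtype library, and which cells held the Kit reads was not tested.

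**Figure D2:**
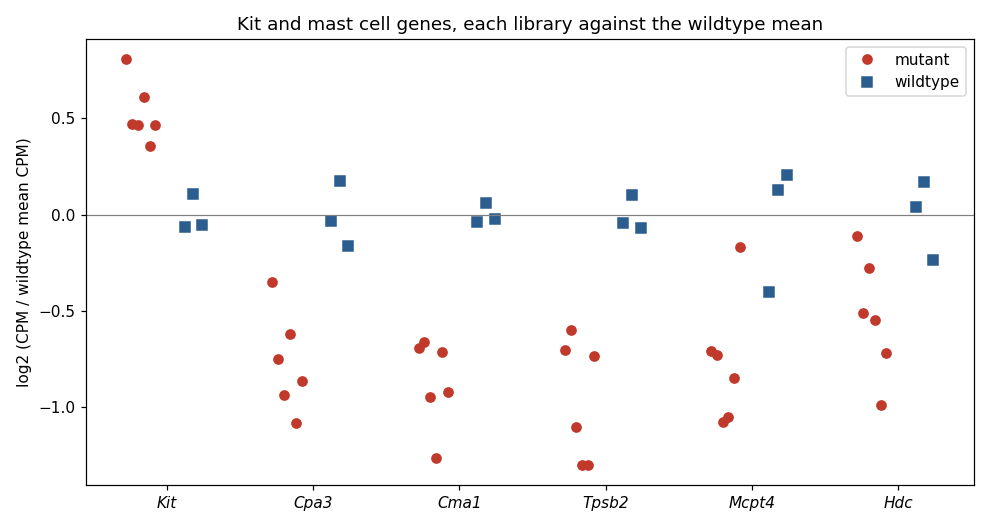
Level of Kit and 5 mast cell genes in each library, as the log2 of its CPM over the wildtype mean; circles are mutant libraries (n = 6) and squares wildtype libraries (n = 3). Kit lies above 0 and Cpa3, Cma1, Tpsb2, Mcpt4 and Hdc below 0 in all 6 mutant libraries.

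Nonagouti (a, ENSMUSG00000027596, chromosome 2, 154791402 to 155051012, plus strand) was the member with the lowest counts and the largest change. It had 49 to 167 reads per mutant library and 288, 180 and 193 reads in wildtype libraries 1 to 3. That was 1.75 to 5.13 CPM in mutant libraries, with a median of 3.24, against 10.6, 6.75 and 6.94 CPM in wildtype libraries. The groups did not overlap, with mutant 4 the lowest and wildtype 1 the highest. The mean of 3.28 ± 1.10 CPM in mutant and 8.10 ± 2.18 CPM in wildtype libraries (SD, n = 6 and 3) corresponded to a log2 fold change of -1.3 (SE 0.25, edgeR adjusted p = 0.00373). The call depended on wildtype 1: without that library the value was -1.05 with an edgeR adjusted p of 0.0536, and over all libraries left out in turn it ran from -1.47 to -1.05. The 5 mutant libraries rich in Gm42418 averaged 2.91 CPM against 10.6 CPM in wildtype 1, while of the others mutant 2 had 5.13 CPM against a mean of 6.84 CPM in wildtype 2 and 3. The annotated exons of nonagouti share 147 of their 1169 bases with Raly on the same strand, and Raly itself fell slightly, at 129 CPM in mutant and 153 CPM in wildtype libraries (log2 -0.24, edgeR adjusted p = 0.0475).

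Of 13 tested genes of agouti and melanocortin signalling, 2 rose and 0 fell, where 9.7% of all tested genes were called higher and 9.47% lower (edgeR). Their median log2 fold change was 0.02. Attractin, the product of Atrn and an accessory receptor for agouti protein, is required for agouti signalling in mouse coat, and Atrn rose to 73.8 ± 10.6 CPM in mutant libraries, against 52.4 ± 5.51 CPM in wildtype libraries, 1.41-fold (edgeR adjusted p = 0.00875). The adenylyl cyclase gene Adcy7 rose 1.43-fold (edgeR adjusted p = 0.0277). Both calls were lost without wildtype 1. The receptor gene that agouti protein acts on, Mc1r, averaged 7.05 ± 0.98 CPM in mutant and 8.18 ± 0.73 CPM in wildtype libraries and was not called (log2 -0.21, 95% interval -0.55 to 0.12). Pomc, whose product yields the melanocortin hormones, stood at 0.74 ± 0.29 and 0.74 ± 0.10 CPM.

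Mitf (ENSMUSG00000035158, chromosome 6, 97807052 to 98021349, plus strand), the transcription factor of pigment cells, had 115 to 143 CPM in mutant libraries (median 129) against 109, 113 and 113 CPM in wildtype libraries. Every mutant library was above every wildtype library, by a small margin in mutant 2. The difference did not pass the test (log2 0.20, 95% interval 0.04 to 0.37, edgeR adjusted p = 0.0754). It was 0.11 with the exon length trend removed. Counts per gene do not separate the isoforms of Mitf that start at different promoters.

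The 3 enzymes of melanin synthesis belong to one family. Tyr (ENSMUSG00000004651, chromosome 7, 87424771 to 87493512, minus strand) encodes tyrosinase, which catalyses the first step, and had 680 to 775 CPM in mutant libraries (median 716) against 832, 693 and 822 CPM in wildtype libraries. Wildtype 2 lay inside the mutant range. Tyrp1 (ENSMUSG00000005994, chromosome 4, 80834123 to 80851719, plus strand), whose product acts late in the pathway to the dark pigment, had 1601 to 1871 CPM in mutant libraries (median 1656) against 1493, 1508 and 1551 CPM in wildtype libraries. Here all mutant libraries were the higher ones. Dct (ENSMUSG00000022129, chromosome 14, 118012790 to 118052244, minus strand), dopachrome tautomerase, had 3918 to 4555 CPM in mutant libraries (median 4272) against 5004, 4728 and 4537 CPM in wildtype libraries, with mutant 2 just above wildtype 3. None of the 3 passed the test: the log2 fold changes were -0.12 for Tyr (95% interval -0.30 to 0.06), 0.15 for Tyrp1 (-0.04 to 0.33) and -0.16 for Dct (-0.37 to 0.05), with edgeR adjusted p = 0.344, 0.249 and 0.278. The intervals for these genes reach at most 1.26-fold higher for Tyrp1 and, at the lower end, a ratio of 0.774 for Dct. They do not allow for the exon length trend. With that trend removed the values were -0.25 for Tyr, 0.23 for Tyrp1 and -0.24 for Dct. None of these passed (edgeR adjusted p = 0.0567, 0.0765 and 0.107). Within the libraries rich in Gm42418, 5 mutants over wildtype 1 gave log2 ratios of -0.2, 0.19 and -0.25 in that order. Within the others, mutant 2 over wildtype 2 and 3 gave -0.15, 0.07 and -0.02.

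Pmel (ENSMUSG00000025359, chromosome 10, 128704195 to 128720238, plus strand) forms the amyloid fibrils on which melanin is laid down, and was the most abundant member. It had 6978 to 8202 CPM in mutant libraries (median 7938) against 8396, 8133 and 8499 CPM in wildtype libraries. Mutant 1 and mutant 4 were low, and mutant 2 and mutant 5 reached the wildtype range. Mlana (ENSMUSG00000024806, chromosome 19, 29697824 to 29708634, plus strand), a melanosome protein that associates with PMEL, had 227 to 273 CPM in mutant libraries (median 249) against 279, 267 and 285 CPM in wildtype libraries. The log2 fold changes were -0.11 for Pmel (95% interval -0.34 to 0.12) and -0.15 for Mlana (-0.31 to 0.00), and neither passed (edgeR adjusted p = 0.511 and 0.159). With the exon length trend removed the signs turned, to 0.01 and 0.09. Mutant over wildtype log2 ratios were -0.14 and -0.19 within the libraries rich in Gm42418, and -0.03 and -0.02 within the others. Pmel shares 105 exon bases with Dgka and 34 with Cdk2 on the other strand, of 2292 in all.

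The transporter genes were close to level. Slc45a2 (ENSMUSG00000022243, chromosome 15, 11000721 to 11029233, plus strand), a melanosome transporter, had 148 to 160 CPM in mutant libraries (median 152) against 169, 151 and 163 CPM in wildtype libraries. Oca2 (ENSMUSG00000030450, chromosome 7, 56239760 to 56536518, plus strand), which encodes a melanosome membrane protein needed for pigmentation, had 219 to 284 CPM in mutant libraries (median 271) against 291, 247 and 288 CPM in wildtype libraries. Both groups overlapped for both genes. The log2 fold changes of -0.07 (95% interval -0.22 to 0.07) and -0.05 (-0.24 to 0.13) did not pass (edgeR adjusted p = 0.481 and 0.709). Mutant over wildtype log2 ratios were -0.14 and -0.13 within the libraries rich in Gm42418, and -0.05 and -0.01 within the others.

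**Figure D3:**
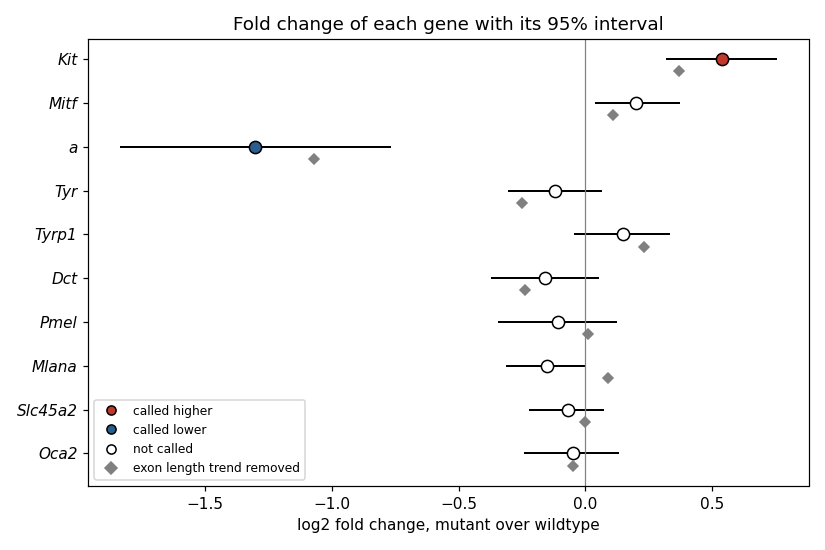
Log2 fold change of each gene, mutant over wildtype (circles), with its 95% interval from the edgeR fit; filled circles passed at an adjusted p under 0.05 and diamonds give the value with the exon length trend removed. Kit at 0.54 and nonagouti at -1.3 are filled, and the other 8 lie between -0.16 and 0.20.

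Levels per length ordered the members in the same way in both groups except at the bottom. CPM values were divided by the length of the principal transcript in kilobases. On average Pmel stood at 3625 CPM per kb in mutant and 3917 CPM per kb in wildtype libraries, Dct at 1934 and 2160, Tyrp1 at 618 and 558, Mlana at 275 and 306, Tyr at 119 and 129, Oca2 at 84.7 and 87.9, Slc45a2 at 51.3 and 54.0, and Mitf at 26.3 in mutant and 22.8 in wildtype libraries. The ranges of neighbours in this order did not overlap in either group. Kit and nonagouti came last: in wildtype libraries nonagouti had 9.23 to 14.5 and Kit 9.21 to 10.4 CPM per kb, which overlap, whereas in mutant libraries nonagouti had 2.39 to 7.02 and Kit 12.3 to 16.8 CPM per kb. The spread within a group was largest for nonagouti, with coefficients of variation of CPM of 33.4% in mutant and 26.9% in wildtype libraries. Kit had 11.5% in mutant and 6.70% in wildtype libraries, and the other 8 members 3.32% to 9.0% in mutant and 1.98% to 9.9% in wildtype libraries.

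Other melanosome genes moved in both directions. Of 28 tested, 6 rose and 5 fell, where 9.7% of all tested genes were called higher and 9.47% lower (edgeR). The median log2 fold change of these genes was -0.03. Of the 28, 14 had a log2 fold change below 0 and 14 above 0. Their summed level was 6753 to 7413 CPM in mutant libraries and 7515 to 8255 CPM in wildtype libraries, without overlap. That sum depends mostly on a few abundant genes. Trpm1, the cation channel gene, was not called and averaged 2624 CPM in mutant and 3141 CPM in wildtype libraries. The genes that rose were Lyst, a regulator of lysosome-related organelles, 1.56-fold, the copper pump Atp7a, which supplies tyrosinase, 1.46-fold, Mreg, a melanosome transport regulator, 1.3-fold, the cystine transporter Slc7a11 1.29-fold, Vps33a 1.21-fold and Mlph, an adaptor for melanosome transport, 1.19-fold. Those that fell were Cd63, a tetraspanin that helps sort PMEL, 1.52-fold (717 ± 85.3 CPM in mutant and 1089 ± 214 CPM in wildtype libraries), Bloc1s5 1.39-fold, the small GTPase Rab38, which carries melanin enzymes to melanosomes, 1.29-fold, Dtnbp1 1.27-fold and Syngr1 1.21-fold. Without wildtype 1, Atp7a was the gene still called higher and Bloc1s5 the gene still called lower, and without wildtype 3 the counts were 3 and 2. With the exon length trend removed, 4 were called higher and 6 lower.

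Of 16 tested genes of the melanoblast lineage, 5 rose, 0 fell and 11 were not called, where 9.7% of all tested genes were called higher (edgeR; median log2 fold change 0.21). Summed, they had 1035 to 1257 CPM in mutant libraries and 891 to 1014 CPM in wildtype libraries, without overlap. The most abundant gene of that sum was Ednrb, and which cells held these reads was not tested. Erbb3, a neuregulin receptor of neural crest cells, ranged from 63.6 to 81.0 CPM in mutant libraries (median 70.7) against 40.5 to 54.2 CPM in wildtype libraries and rose 1.5-fold (log2 0.59, SE 0.10, edgeR adjusted p = 0.00253). The endothelin receptor gene Ednrb averaged 372 ± 36.1 CPM in mutant and 289 ± 15.0 CPM in wildtype libraries, 1.29-fold higher, and the transcription factor gene Pax3 7.58 ± 1.16 and 4.87 ± 0.36 CPM, 1.56-fold higher. Zeb2 rose 1.35-fold and the endothelin-converting enzyme gene Ece1 1.29-fold, with overlap between the groups for both. The genes for a ligand of KIT and for one of the endothelin receptor were not called: Kitl, the stem cell factor gene, averaged 75.7 ± 10.9 CPM in mutant and 62.6 ± 9.25 CPM in wildtype libraries (log2 0.28, 95% interval 0.02 to 0.53), and Edn3 120 ± 19.5 and 109 ± 4.48 CPM. Sox10, the transcription factor shared by melanoblasts and Schwann cells, was not called either (36.2 ± 4.64 and 33.8 ± 5.52 CPM). Without wildtype 1, and likewise without wildtype 3, Erbb3 was the gene of this list still called, and with the exon length trend removed 3 were called higher. Of 13 Schwann cell genes, which share Sox10 and Erbb3 with melanoblasts, 1 rose, the myelin gene Mbp, 1.35-fold, a call lost without wildtype 1, and 0 fell, with a summed level of 755 to 869 CPM in mutant and 767 to 780 CPM in wildtype libraries.

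**Figure D4:**
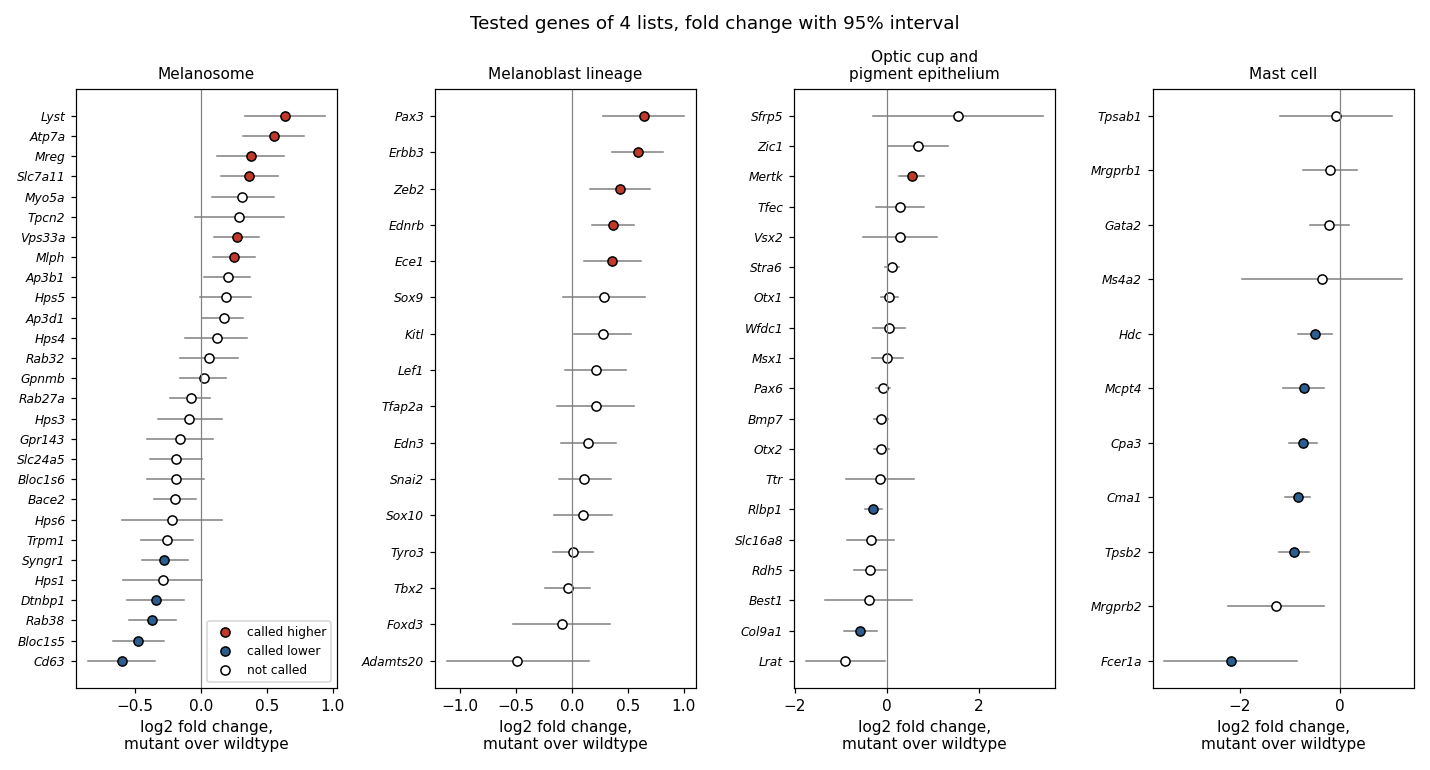
Log2 fold change, mutant over wildtype, of every tested gene of the melanosome (28), melanoblast lineage (16), optic cup and pigment epithelium (19) and mast cell (11) lists, with 95% intervals from the edgeR fit; filled circles passed at an adjusted p under 0.05. Called genes lie on both sides of 0 in the melanosome list, above 0 in the lineage list and below 0 in the mast cell list.

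Of 19 tested markers of the optic cup and pigment epithelium, 1 rose, 2 fell and 16 were not called (edgeR). Among all tested genes, 9.7% were called higher and 9.47% lower. The median log2 fold change of the markers was -0.08. Summed over the 22 listed genes, they had 1219 to 1354 CPM in mutant libraries and 1391 to 1453 CPM in wildtype libraries, without overlap. That sum depends mostly on a few abundant genes, among them Rlbp1 and Col9a1. Of the 19 tested, 10 had a log2 fold change below 0 and 9 above 0. Mertk, a receptor for engulfing cell debris that macrophages also carry, rose 1.45-fold to 22.5 ± 2.94 CPM in mutant libraries, against 15.5 ± 0.77 CPM in wildtype libraries. Rlbp1, the carrier of retinaldehyde, fell 1.23-fold to 261 ± 20.0 CPM in mutant libraries, against 321 ± 35.7 CPM in wildtype libraries, and Col9a1, a collagen chain of the ciliary region, fell 1.49-fold to 132 ± 34.1 CPM, against 197 ± 14.7 CPM. All 3 calls were lost without wildtype 1. Otx1 averaged 73.1 ± 5.84 CPM in mutant and 70.4 ± 4.48 CPM in wildtype libraries, and Otx2, an optic cup regulator that acts with MITF, 92.9 ± 4.12 and 101 ± 9.35 CPM.

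In the genome, Kit lies between other receptor kinase genes that also rose. Its nearest tested neighbours on chromosome 5 were Pdgfra, at 167 CPM in mutant and 124 CPM in wildtype libraries (log2 0.43, edgeR adjusted p = 0.0113), and Kdr, at 128 and 85.2 CPM (log2 0.59, edgeR adjusted p = 0.00462). Over all members, 25 genes overlapped a member or were its nearest tested gene on either side, of which 6 were called higher and 3 lower, against 9.7% and 9.47% of all tested genes. Beside nonagouti, Ahcy and Eif2s2 were not called (log2 -0.30 and -0.20, edgeR adjusted p = 0.0509 and 0.0804). Values of these neighbours without wildtype 1, or with the exon length trend removed, are not given here.

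The direction of Kit held under every setting tried. Across 19 other settings the log2 fold change lay between 0.37 and 0.60, and each passed at an adjusted p under 0.05. For nonagouti the values ran from -1.47 to -1.05, and 18 of 19 passed.

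**Figure D5:**
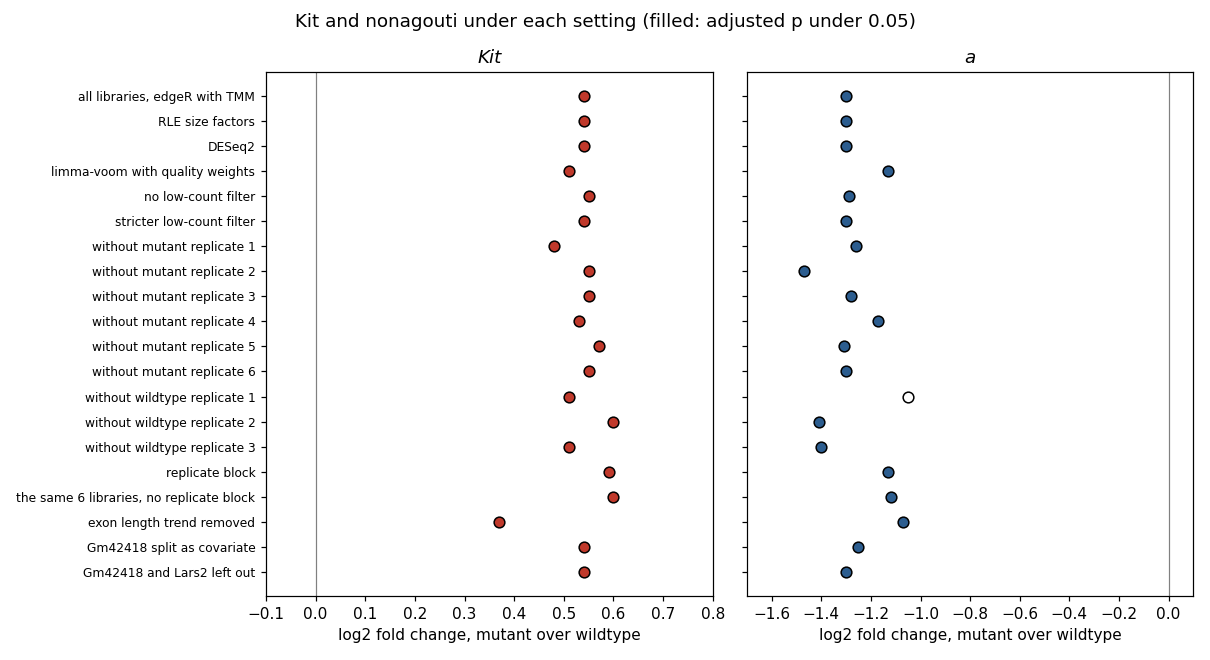
Log2 fold change of Kit (left) and nonagouti (a, right), mutant over wildtype, with all libraries and under 19 other settings, 1 row each; filled circles passed at an adjusted p under 0.05. The open circle is nonagouti without wildtype 1, at -1.05.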

How the data were processed

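Bulk RNA-seq libraries from newborn anterior segments were compared by labelled genotype. The authors deposited a table of raw counts, 1 row for each Ensembl gene. The tools listed in the submitters' processing notes are HTSeq 0.6.1, STAR 2.6.1 and DESeq2 1.6.3, on GRCm38 and without roles. No source used here states the strand setting of the counting. Symbols and lengths came from GENCODE M21, which matched 34490 of 35275 identifiers, and promoters from RefSeq. Genotypes were compared with edgeR 4.0.16 (R 4.3.3; TMM, filter on low counts, robust quasi-likelihood fit, Benjamini-Hochberg adjustment at 0.05 over all tested genes), and CPM used TMM library sizes. Intervals of 95% come from that fit. Alternatives were RLE factors, DESeq2 1.42.0, limma-voom 3.58.1, other filters, a replicate block, removal of a smooth exon length trend (mgcv 1.9.3), the Gm42418 split at 1% as a covariate, and leaving out each library. The test was checked on simulated counts. These were drawn without the Gm42418 split, the exon length trend or an outlying library, so that check does not cover them. Within-group pairs differed by more than sampling noise (chi-square per degree of freedom of 14.7 or more in 18 pairs). The p-values reflect variation among pooled samples.

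The members and lists were chosen with earlier results of these data known. The naming rule took all members, of each other list the genes that passed (up to 6 in each direction) or else the 2 with the lowest p, the 5 genes closest to the profile of the melanin genes and of nonagouti, and tested genes overlapping or next to a member. Named after their values were seen were Mc1r, Pomc, Kitl, Edn3, Sox10, Otx1, Otx2, Krt12, Pax6, Cryab, Trpm1, Gpnmb and the genes at 0.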

Additional observations from a re-analysis of the deposited data

Results flagged for a closer look

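Oca2 stood apart in mutant 1, at 219 CPM, where the next mutant library had 265 CPM; that gap was 0.716 of the range of the 6 mutant libraries, above Dixon's critical value of 0.625. The summed lens markers were likewise low in mutant 4, at 211 CPM against 227 CPM in the next mutant library, a gap of 0.685 of the range. Of 20 sets of 6 mutant libraries examined in this way, 2 stood out, and chance gives about 1 in 20.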

How the results depend on the processing

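Of 190 member values under other settings, 184 kept their direction and side of the threshold. Nonagouti lost its call without wildtype 1. Mlana (-0.17) and Mitf (0.17) passed with limma-voom, and Mitf also without mutant 2 (0.23). With the exon length trend removed, Pmel turned to 0.01 and Mlana to 0.09, while 2 members were still called. The number of members called was 4 with limma-voom and 1 to 3 with a library left out (1 without wildtype 1). Called genes in all numbered 4694 with limma-voom and 1877 with the Gm42418 split as a covariate, and between 538 and 3265 with a library left out, 538 without wildtype 1 and 1669 without wildtype 3. Mast cell genes called lower numbered 4 to 7 with a library left out, 4 without wildtype 1 or wildtype 3; Cpa3, Cma1 and Tpsb2 passed under every setting. The labels do not say whether a replicate number marks a shared litter, batch or day. Same-numbered libraries had correlations of deviations of 0.09, 0.03 and -0.10, and 1 of 3 mutants matched its own number best. With so few libraries, these values cannot decide whether the numbers pair the samples. With the replicate block over the 6 libraries numbered 1 to 3, 1447 genes were called, against 1590 in the same 6 without it (added after the data were seen), and both Kit (0.59) and nonagouti (-1.13) passed. Without wildtype 1, 1 melanosome gene was called higher and 1 lower, 1 lineage gene higher, and 0 pigment epithelium genes in either direction. Low read numbers limit the precision for nonagouti, Fcer1a, Pomc, Stmn2, Fabp7 and Mc1r.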

Other observations

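Trpm1, a cation channel gene of melanocytes that MITF is known to switch on and a gene of the melanosome list, was lower in all 6 mutant libraries, at 2490 to 2906 CPM against 2949 to 3277 CPM in wildtype libraries. It did not pass (log2 -0.26, edgeR adjusted p = 0.0659), but passed with DESeq2 (adjusted p = 0.00523), with limma-voom (adjusted p = 0.00487) and with the exon length trend removed (log2 -0.51, edgeR adjusted p = 0.00633). DESeq2 called 25.9% of the genes it gave an adjusted p, and limma-voom 29.7% of all tested genes, against 19.2% with edgeR. Values of Trpm1 under the remaining settings, such as leaving out wildtype 1, are not given here. Gpnmb, a melanosome glycoprotein gene that phagocytes also use, averaged 1621 ± 47.4 CPM in mutant and 1604 ± 65.9 CPM in wildtype libraries. These genes were singled out after their values were seen.

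The level of Tyrp1 per unit of Dct was 0.351 to 0.436 in mutant libraries and 0.298 to 0.342 in wildtype libraries, and per unit of Tyr 2.28 to 2.41 in mutant and 1.80 to 2.18 in wildtype libraries, in CPM. The groups did not overlap in either ratio. Tyr per unit of Dct overlapped, at 0.150 to 0.189 in mutant and 0.147 to 0.181 in wildtype libraries. Dct per unit of Pmel overlapped too, at 0.526 to 0.583 in mutant and 0.534 to 0.596 in wildtype libraries. None of the ratios was adjusted for the exon length trend. These ratios were chosen after the data were seen and were not tested.

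Among 13946 genes with a mean of at least 1 CPM, those closest over the 9 libraries to the mean centred log2 profile of the 7 melanin genes were Zc3h15, Eif4e2, Cdca4, Chmp2b and Ddx5, with root mean square differences of 0.02 to 0.04, where the profile itself departed from 0 by 0.06. The genes closest to nonagouti were Gchfr, Rpl22l1, Fgf21, Otor and 2410015M20Rik (differences of 0.23 to 0.30, profile 0.74), and those closest to Kit, added after the data were seen, Ank, Gpc4, Gclm, Sidt2 and Masp1 (0.06 to 0.08, profile 0.28).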
